A study of Mus musculus with 24 samples.

Results

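The transcripts of 10 genes for the Polycomb repressive complexes, *Ezh1*, *Ezh2*, *Eed*, *Suz12* and *Jarid2* of PRC2 and *Ring1*, *Rnf2*, *Pcgf1*, *Pcgf6* and *Bmi1* of PRC1, were followed in mouse preimplantation embryos depleted of MERVL, an endogenous retrovirus. The genes were taken by name from the gene rows of the RNA count tables, and all 10 of them were found among 55291 genes. Zygotes of B6D2F1 (BDF1) matings, whose embryos are labelled BDF2, received 20 µM antisense oligonucleotide (ASO) in the male pronucleus, either a mix of 3 ASOs to MERVL (MERVL-KD) or a scrambled ASO (control). Total RNA was sequenced from pools of 30 embryos without zona at the 2-cell (1.5 dpc), 4-cell and 8-cell stages (both labelled 2.5 dpc), with 2 control and 2 MERVL-KD libraries at each stage, 12 in all. All of these embryos were injected and cultured, so none of the groups is an untouched embryo. Since the RNA came from whole embryos, fewer cells with a transcript and less of it per cell cannot be told apart.

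The Polycomb complexes hold developmental genes in a silent state. PRC2 places methyl groups on lysine 27 of histone H3 through EZH2 or its paralog EZH1, and needs EED and SUZ12 to do so, while JARID2 helps it to find and engage chromatin. PRC1 places ubiquitin on histone H2A through RING1 or RNF2 (RING1B), each paired with one of several PCGF proteins. The kind of PRC1 depends in part on the PCGF protein. BMI1 (PCGF4) is part of the canonical kind, which reads the PRC2 mark, though it does not define that kind alone. PCGF1 and PCGF6 form variant kinds that reach chromatin without the mark. Before implantation these genes are of interest because oocytes load the egg with their RNA and protein, and because maternal H3K27 methylation holds some imprinted genes silent in the embryo.

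Totals per library ranged from 28167085 to 41482526 counts. Of gene counts from 1 to 50, between 71.8% and 74.7% were even in each library, so a count need not stand for a separate RNA fragment and the counting error may be larger than the counts give. MERVL-int took from 1.07% to 6.57% of the counts in control and from 0.0278% to 0.157% in MERVL-KD libraries. The summed level of 6 markers of the 2-cell stage (such as *Zscan4c* and *Zfp352*) was 418 to 506 CPM (counts scaled to a common library size, with TMM factors over the 12 libraries) in control 2-cell libraries and 5.07 to 7.56 CPM in control 8-cell libraries. In MERVL-KD 2-cell libraries it was lower, 229 to 305 CPM, and 3 of the 6 markers passed lower there, with a median log2 fold change of -0.68. The 8 markers of the cumulus cells that surround the egg summed to between 15.3 and 26.1 CPM in the 12 libraries, of which *Amhr2* made up from 13.5 to 24.6 CPM, and each of the other 7 stayed at or below 1.92 CPM. Replicate libraries differed beyond sampling noise in each group, so none was taken as a repeat of another. Which libraries shared a day is not given in the sources used here, and each p-value measures the spread between these pools.

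The first question was whether the ASOs could pair with the transcripts of these genes themselves. With up to 3 mismatches, 242 genes (0.438% of 55291) held a site of a MERVL ASO on their transcribed strand, introns included, and none of the 10 Polycomb genes did, nor any of 9 other PRC2 and 25 other PRC1 subunits. For *Jarid2*, *Ezh2* and *Bmi1* a site with the fewest mismatches in that gene is printed, as examples of how far these genes were from an ASO target. *Rnf2* and *Ezh1* also held sites with 5 mismatches, which are not printed. Each site is read along the transcript, with capitals for the bases that do not pair with the ASO above it.

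MERVL-ASO3: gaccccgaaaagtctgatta
*Jarid2* site (chr13:44757107-44757126, GRCm38, plus strand, intron, 4 mismatches): taatGagacttttGgAggtT
MERVL-ASO2: catttgtctgtttaccacga
*Ezh2* site (chr6:47569176-47569195, GRCm38, minus strand, intron, 5 mismatches): tcgtTgtCTacagacaaGtT
*Bmi1* site (chr2:18681709-18681728, GRCm38, plus strand, intron, 7 mismatches): tcAGggtaTacagTTaCTtg

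The *Jarid2* site was the closest of all 10 genes. *Bmi1* and *Pcgf1*, which differed between the groups at later stages, held no match with fewer than 7 mismatches.

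Promoter windows of *Bmi1* and *Jarid2* are printed as well, because these genes gave the largest differences between MERVL-KD and control embryos. The windows run from 250 bases before to 50 bases after a RefSeq start (GRCm38.p6), and capitals mark matches on either strand to 5 motifs. These were the E-box with the letters CACGTG, the GC box with the letters GGGCGG, the TATA box with the letters TATAAA, the CCAAT box spelled by its own name, and the cyclic AMP response element with the letters TGACGTCA.

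*Bmi1* (chr2:18676768-18677067, plus strand): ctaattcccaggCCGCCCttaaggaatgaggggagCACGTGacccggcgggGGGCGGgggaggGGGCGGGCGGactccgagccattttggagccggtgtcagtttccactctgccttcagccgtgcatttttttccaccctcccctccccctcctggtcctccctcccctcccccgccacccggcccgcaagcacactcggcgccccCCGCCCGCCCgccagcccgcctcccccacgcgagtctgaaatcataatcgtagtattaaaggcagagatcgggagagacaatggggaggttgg
*Jarid2*, first start (chr13:44730524-44730823, plus strand): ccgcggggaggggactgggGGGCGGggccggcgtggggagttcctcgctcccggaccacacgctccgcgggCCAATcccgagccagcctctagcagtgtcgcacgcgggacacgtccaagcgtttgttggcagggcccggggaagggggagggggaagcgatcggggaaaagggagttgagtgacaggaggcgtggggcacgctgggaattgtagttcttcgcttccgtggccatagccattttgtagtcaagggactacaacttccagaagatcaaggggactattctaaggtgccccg
*Jarid2*, second start (chr13:44731021-44731320, plus strand): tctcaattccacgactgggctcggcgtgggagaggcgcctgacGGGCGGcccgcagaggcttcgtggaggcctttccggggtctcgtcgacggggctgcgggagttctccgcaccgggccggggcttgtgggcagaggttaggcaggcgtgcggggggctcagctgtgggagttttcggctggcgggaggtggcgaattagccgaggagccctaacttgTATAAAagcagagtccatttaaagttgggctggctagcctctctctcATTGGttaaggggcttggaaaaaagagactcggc

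RefSeq gave 10 windows for 9 of the 10 genes, and *Pcgf1* had none. The *Bmi1* window held 23 CpG pairs and 6 GC boxes, some of which overlap, and was the only one of the 10 with an E-box, which 7.15% of all 32851 windows hold. GC boxes stood in 7 of the 10 windows and in 35.7% of all windows. A TATA box stood only in the second *Jarid2* window, and in 13.6% of all windows. CCAAT stood in 5 of the 10 windows (37.4% of all) and TGACGTCA in 0 (1.79% of all). Each of the 10 windows held more CpG pairs than the median window, which had 7.

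**Figure D1:**
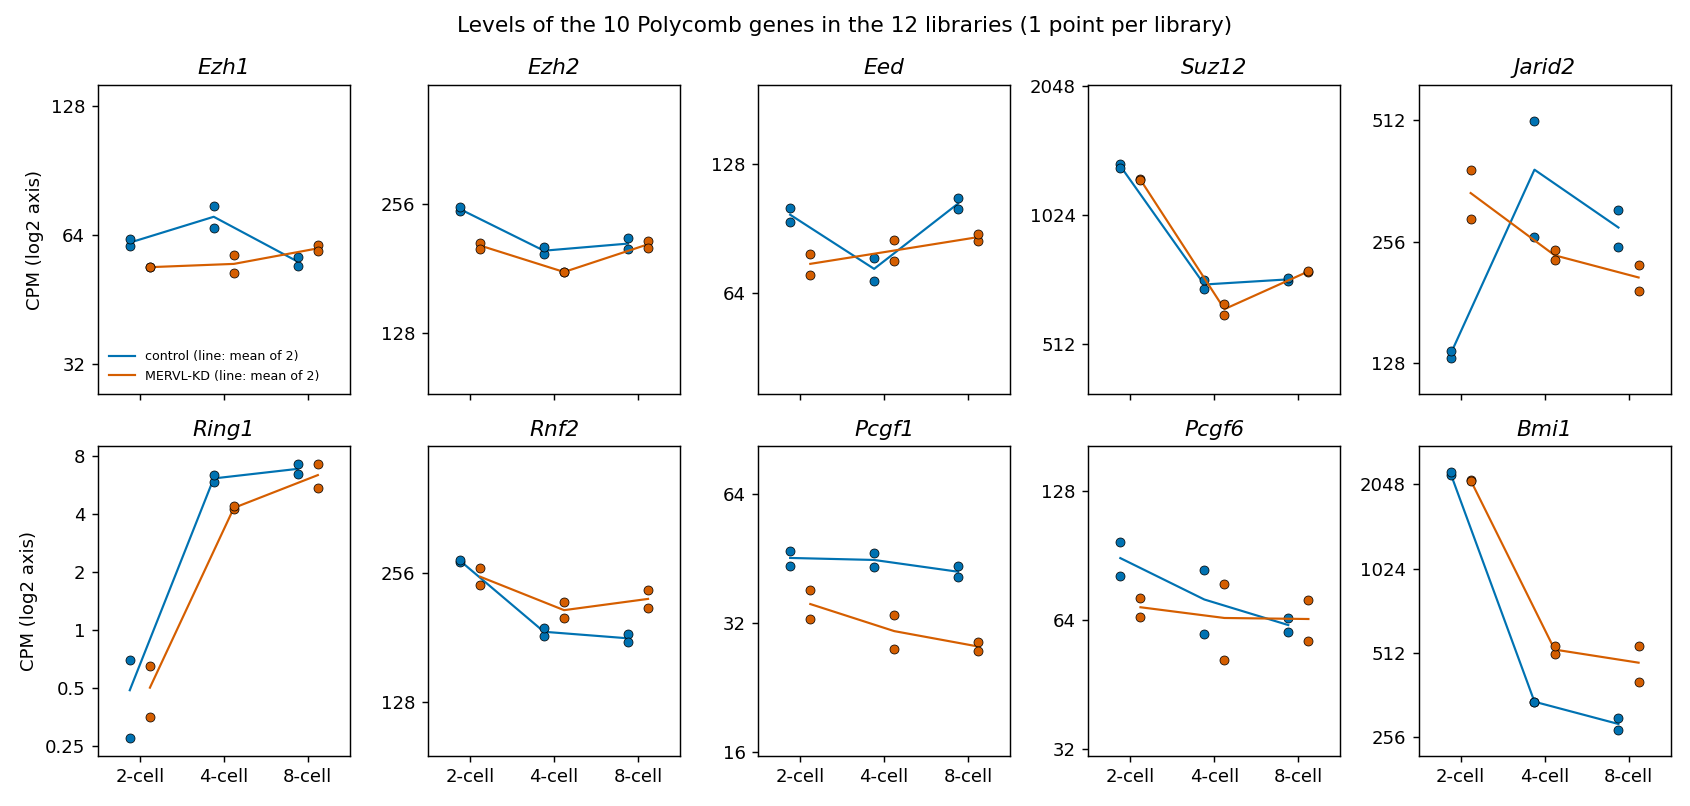
Level of each of the 10 Polycomb genes (CPM, log2 axis, each panel with its own range) in control (blue) and MERVL-KD (orange) embryos by stage, 1 point per library, with lines through the means of 2 libraries. *Bmi1* fell from at least 2115 CPM at the 2-cell stage to between 269 and 542 CPM later, with both MERVL-KD libraries above both controls at the 4-cell and 8-cell stages, and *Pcgf1* was lower in MERVL-KD libraries at each stage.

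To see which subunits the embryo's RNA favored, levels were compared per length of exon (RPKM, CPM divided by kilobases of exon). In control 2-cell embryos *Bmi1* led with 557 and 573 RPKM, and *Suz12* followed with 272 and 268 RPKM. *Rnf2* stood at 65.9 and 66.6 RPKM and *Ezh2* at 37.0 and 37.8 RPKM. The next levels were those of *Pcgf1* (26.5 and 28.7 RPKM) and *Eed* (26.5 and 24.6 RPKM), whose libraries overlapped. *Pcgf6*, *Jarid2* and *Ezh1* came lower, with means of 17.8, 13.9 and 8.27 RPKM. *Ring1* was last at 0.216 and 0.0848 RPKM, from 22 and 10 counts. By the 4-cell stage *Suz12* had passed *Bmi1* in control embryos, with a mean of 143 ± 4.53 against 85.9 ± 0.0812 RPKM (SD, n = 2), and *Suz12* led at the 8-cell stage as well, with 147 ± 1.77 against 71.5 ± 5.23 RPKM. In MERVL-KD 4-cell embryos the libraries of these genes overlapped, with 132 ± 6.12 RPKM for *Bmi1* and 125 ± 5.19 RPKM for *Suz12*. At the 8-cell stage of control embryos the levels of *Ezh2*, *Jarid2*, *Eed* and *Pcgf1*, with means between 25.6 and 31.0 RPKM, could not be ordered beyond the overlap of neighbours.

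The next comparison asked how these transcripts changed as control embryos passed from the 2-cell to the 8-cell stage, the window in which maternal RNA is cleared and the embryo's genome takes over. Of the 10 genes 2 rose and 5 fell between the 2-cell and the 8-cell stage, while 58% of 24040 tested genes passed. The rule for every call here is a Benjamini-Hochberg adjusted p under 0.05 in the edgeR quasi-likelihood test. The adjustment covered genes and repeat families, and shares and medians over all tested are over genes alone. The median log2 fold change of the 10 was -0.21, beside -0.13 over all tested. Between the 2-cell and 4-cell stages again 2 rose and 5 fell (55.1% of all tested passed), and between the 4-cell and 8-cell stages 1 rose (5.87% of all tested passed).

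*Ring1* (chr17:34020792-34024680, minus strand) gave the largest rise. Its level was 0.701 and 0.275 CPM in control 2-cell libraries, 5.84 and 6.39 CPM at the 4-cell stage and 7.25 and 6.46 CPM at the 8-cell stage. The libraries of the 2-cell stage lay far below the others, and the log2 fold change from the 2-cell to the 8-cell stage was 3.83 ± 0.41 (SE, adjusted p = 5.3e-08). Its paralog *Rnf2* (chr1:151458004-151500955, minus strand) stood at 272 and 275 CPM, then at 183 and 191 CPM and at 184 and 176 CPM. *Rnf2* fell by 0.60 ± 0.10 on the log2 scale (adjusted p = 1.2e-05). In the control 8-cell libraries its level per length was still 19.9 and 21.4 times that of *Ring1*.

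*Bmi1* (chr2:18677018-18686629, plus strand) gave the largest fall. It stood at 2215 and 2276 CPM in control 2-cell libraries, at 341 and 342 CPM at the 4-cell stage and at 269 and 299 CPM at the 8-cell stage. No library of a later stage came near those of the 2-cell stage, and the log2 fold change to the 8-cell stage was -2.98 ± 0.12 (adjusted p = 4.1e-15). A row named *Gm5946*, which lies over a copy of *Bmi1* on chromosome X that matches 2416 bases at 97.1% identity, moved alongside, from 271 to 279 CPM at the 2-cell stage to 13.7 to 17.0 CPM at the 8-cell stage in control. This row held between 4.83% and 11.2% of the CPM of both rows together. How many reads of *Bmi1* went to the copy or were dropped as fitting both was not measured. The summed level of 8 oocyte markers also fell, from between 1222 and 1302 CPM to between 125 and 138 CPM. *Bmp15* (means of 568 and 22.2 CPM) and *Oosp1* (326 and 6.94 CPM) made up most of this sum at the 2-cell stage. *Zp3* moved less (22.8 and 12.6 CPM), and each of the 8 passed lower.

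Among the PRC2 genes, *Suz12* (chr11:79993106-80034123, plus strand) fell from 1346 and 1323 CPM at the 2-cell stage to 690 and 721 CPM at the 4-cell stage, and stood at 719 and 732 CPM at the 8-cell stage. Its log2 fold change from the 2-cell to the 8-cell stage was -0.88 ± 0.08 (adjusted p = 4.3e-09). Shorter copies of *Suz12* sequence stand on chromosomes 13 and 1 outside annotated genes. *Eed* (chr7:89954654-89980983, minus strand) stood at 101 and 94.1 CPM, then at 77.5 and 68.5 CPM, and at 101 and 107 CPM, low only in the libraries of the 4-cell stage. It fell by 0.42 ± 0.11 to the 4-cell stage (adjusted p = 0.0027) and rose by 0.51 ± 0.11 from there to the 8-cell stage (adjusted p = 0.0082). Both *Eed* calls were lost without control 4-cell replicate 2 (adjusted p = 0.0562 and 0.128), and the second also without control 8-cell replicate 2 (adjusted p = 0.0933). *Ezh2* (chr6:47530139-47595341, minus strand) moved little, from 247 and 252 CPM to 214 and 201 CPM, a log2 fold change of -0.27 ± 0.09 (adjusted p = 0.014), while *Ezh1* (chr11:101191115-101226463, minus strand) stayed between 54.2 and 74.9 CPM in the control libraries and did not pass. The *Ezh2* call was lost on leaving out control 2-cell replicate 2, MERVL-KD 4-cell replicate 2, MERVL-KD 8-cell replicate 2 or either control 8-cell replicate (adjusted p from 0.0788 to 0.272), since all 12 libraries shared 1 fit.

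*Jarid2* (chr13:44729474-44921643, plus strand) went the other way. It stood at 132 and 138 CPM in control 2-cell libraries, at 264 and 508 CPM at the 4-cell stage and at 307 and 248 CPM at the 8-cell stage. All 4 later libraries lay above both of the 2-cell stage, and control 4-cell replicate 2 stood apart above the rest. The log2 fold change was 1.52 ± 0.29 to the 4-cell stage (adjusted p = 0.0029) and 1.04 ± 0.29 to the 8-cell stage (adjusted p = 0.017). Without control 4-cell replicate 2 the first was 0.96, and the second was not called without control 2-cell replicate 1 or 2, control 8-cell replicate 1 or MERVL-KD 4-cell replicate 1 (adjusted p from 0.0508 to 0.127). The other PCGF genes stayed lower in amplitude. *Pcgf6* (chr19:47033617-47050906, minus strand) went from 81.2 and 97.4 CPM to 59.9 and 64.7 CPM at the 8-cell stage, -0.52 ± 0.19 on the log2 scale (adjusted p = 0.032), a call lost without control 2-cell replicate 2, either control 8-cell replicate, either MERVL-KD 2-cell replicate or MERVL-KD 8-cell replicate 2 (adjusted p from 0.050 to 0.243). *Pcgf1* (chr6:83077869-83080855, plus strand) stayed between 40.9 and 47.3 CPM in all 6 control libraries. A copy of 475 of its bases lies in the row *Gm8930*, which held from 2 to 10 counts a library.

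The same contrasts were made within MERVL-KD embryos. Between the 2-cell and 8-cell stages 1 of the 10 genes rose and 3 fell (58.2% of all tested passed, median -0.13 for the 10 and -0.19 for all), between the 2-cell and 4-cell stages 1 rose and 3 fell (54.4%), and between the 4-cell and 8-cell stages 1 rose (4.68%). *Ring1* rose by 3.67 ± 0.40 to the 8-cell stage (adjusted p = 7.5e-08), from 0.356 and 0.650 CPM to 5.45 and 7.28 CPM, and *Suz12* fell by 0.71 ± 0.08 (adjusted p = 1.2e-07), from 1243 and 1236 CPM to 756 and 759 CPM. *Suz12* rose by 0.29 ± 0.08 between the later stages (adjusted p = 0.040) and *Pcgf1* fell by 0.33 ± 0.14 from the 2-cell to the 8-cell stage (adjusted p = 0.045). The *Suz12* rise was lost without any 1 of the MERVL-KD libraries or of the control 4-cell libraries (8 in all, adjusted p from 0.0553 to 0.138). The *Pcgf1* fall was lost without any 1 library except MERVL-KD 2-cell replicate 1 and both of the MERVL-KD 4-cell stage (9 in all, adjusted p from 0.0513 to 0.365). *Rnf2* fell by 0.26 ± 0.09 to the 4-cell stage (adjusted p = 0.025), which was lost without MERVL-KD 2-cell replicate 1 or 2 or MERVL-KD 4-cell replicate 2 (adjusted p = 0.0508, 0.266 and 0.10).

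The central question was what the loss of MERVL did to these transcripts at each stage. At the 2-cell stage 1 of the 10 genes passed and was higher in MERVL-KD embryos, where 14.1% of 20604 tested genes passed. At the 4-cell stage 2 passed, 1 of them higher and 1 lower (10.8% of 19738 tested genes passed), and at the 8-cell stage again 1 was higher and 1 lower (5.06% of 18414). The median log2 fold changes of the 10 genes were -0.07, -0.17 and 0.03 at the 3 stages, beside 0.01, 0.03 and 0.01 over all tested genes. The 2 libraries of each group did not overlap for 9, 8 and 7 of the 10 genes at the 3 stages, beside 61.9%, 59.6% and 53.5% of genes of at least 1 CPM. Both use levels scaled over the 12 libraries, which shift MERVL-KD by -0.08 on the log2 scale from the stage fit in 2-cell embryos. *Bmi1* counts as apart there, though its stage fit gave 0.00, so the 2-cell count depends in part on the scale. At a minimum of 2-fold only *Jarid2* at the 2-cell stage passed, and 6.61%, 4.54% and 1.7% of all tested genes passed at the 3 stages.

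**Figure D2:**
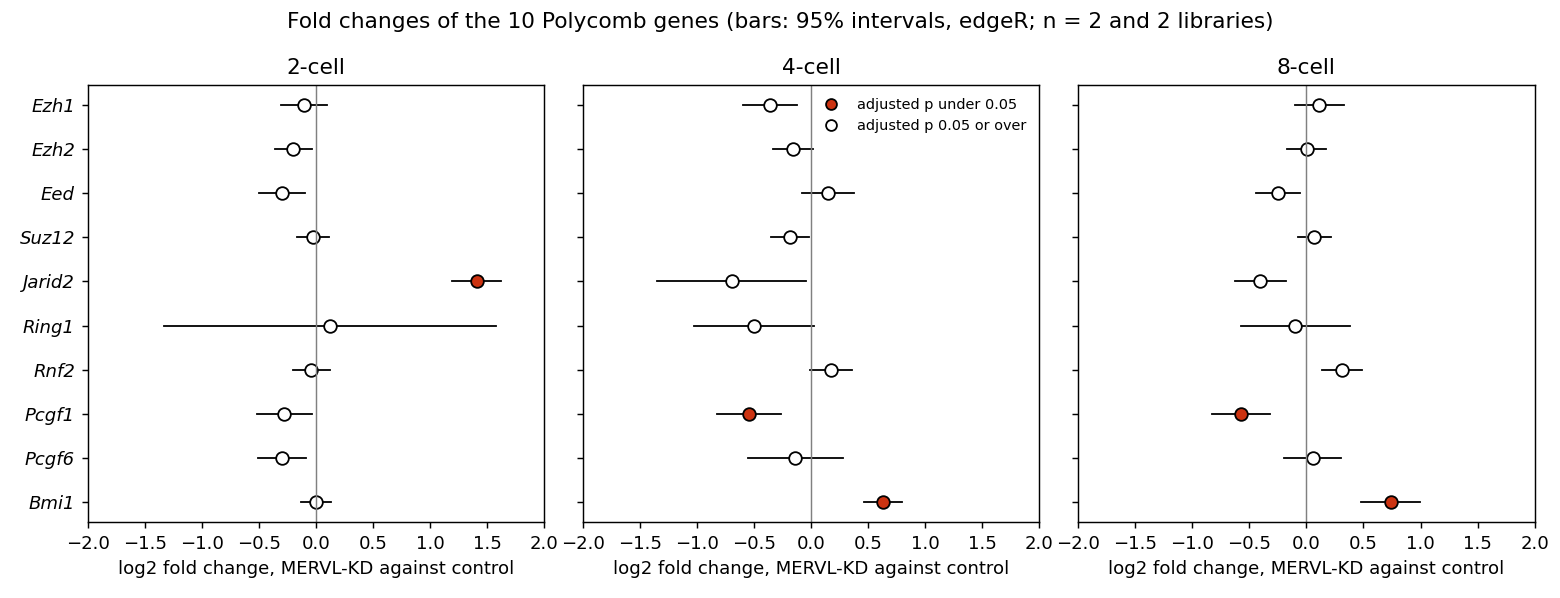
Log2 fold change of the 10 Polycomb genes between MERVL-KD and control embryos, 1 panel per stage, from edgeR with 2 libraries a group, with 95% intervals as bars. The bars take the standard error as normal and are narrower than the tests imply. Filled points passed an adjusted p of 0.05, which are *Jarid2* at 1.41 in 2-cell embryos, and *Bmi1* at 0.63 and 0.74 and *Pcgf1* at -0.55 and -0.57 in 4-cell and 8-cell embryos.

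*Jarid2*, the PRC2 cofactor, gave the largest difference. In 2-cell embryos it stood at 132 and 138 CPM in control and at 291 and 385 CPM in MERVL-KD libraries, so both MERVL-KD libraries lay above both controls. The log2 fold change was 1.41 ± 0.11 (adjusted p = 7.3e-07), and it lay between 1.18 and 1.58 with any 1 library left out. The levels of the MERVL-KD 2-cell libraries were within the range of control embryos at the 4-cell stage. In 4-cell embryos the order was turned, with 264 and 508 CPM in control and 230.1 and 244 CPM in MERVL-KD libraries. The groups did not overlap, but the controls were far from each other. The log2 fold change of -0.70 did not pass in edgeR (unadjusted p = 0.10, adjusted p = 0.31). Its 95% interval, from -1.35 to -0.05, takes the standard error as normal and is narrower than this test implies. Without control 4-cell replicate 1, which leaves the high control alone, the fit gave -1.10, where the lone library is assumed to vary as the other group does. Without control 4-cell replicate 2 the control left, at 264 CPM, is near the MERVL-KD libraries, at 230.1 and 244 CPM. The size of the 4-cell difference thus rested largely on control replicate 2. At the 8-cell stage *Jarid2* stood at 307 and 248 CPM in control and at 224 and 193 CPM in MERVL-KD libraries, -0.40 ± 0.11 on the log2 scale (adjusted p = 0.068). This difference passed in DESeq2 (adjusted p = 0.025), with the replicate number as a block (0.0084) and with genes of at least 1 count in some library kept (0.0039). The part of the 2-cell markers, whose sum was lower in the MERVL-KD 2-cell libraries, in the *Jarid2* difference at that stage was not tested.

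A single fit of the 12 libraries tested whether the MERVL-KD difference in *Jarid2* itself changed between stages. It was lower by 2.03 ± 0.41 on the log2 scale at the 4-cell than at the 2-cell stage (adjusted p = 0.040), beside 4.16% of all 24040 tested genes that passed this contrast. This call held on leaving out either control 4-cell library (with differences of -2.42 and -1.47), and was lost on leaving out any 1 of the other 10 libraries, with adjusted p from 0.0546 to 0.196 and differences from -1.82 to -2.22. It was also lost with the replicate number as a block (adjusted p = 0.062). From the 2-cell to the 8-cell stage the difference was -1.74 ± 0.41 (adjusted p = 0.070). Between the 4-cell and 8-cell stages 0 of the 10 genes passed in edgeR (3 had an unadjusted p under 0.05) and 0 passed in DESeq2, beside 0.624% of all tested genes in edgeR.

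The other PRC2 genes did not pass at any stage. *Ezh2*, the main methyltransferase, stood at 247 and 252 CPM in control and at 209 and 202 CPM in MERVL-KD 2-cell libraries, and at 196 and 203 CPM against 178 and 178 CPM in 4-cell libraries. The MERVL-KD libraries lay below the controls at both of these stages, with log2 fold changes of -0.20 and -0.16 (adjusted p = 0.13 and 0.31), and overlapped them at the 8-cell stage with 0.00 (95% interval from -0.17 to 0.17). *Ezh1* stood at 66.4 and 74.9 CPM in control and at 57.5 and 52.2 CPM in MERVL-KD 4-cell libraries, its largest difference, at -0.36 ± 0.12 (adjusted p = 0.081). *Eed* stood at 101 and 94.1 CPM in control and at 79.2 and 70.8 CPM in MERVL-KD 2-cell libraries, -0.30 ± 0.10 (adjusted p = 0.067). Its exons share 6.82% of their length with *E230029C05Rik* on the other strand. *Suz12* had intervals that together ran from -0.35 to 0.21, and its largest difference was -0.19 at the 4-cell stage (adjusted p = 0.20). Within each library, the log2 ratio of *Ezh1* to *Ezh2* per length differed by 0.00034 between MERVL-KD and control libraries (exact permutation test within stages, two-sided, p = 1, n = 6 and 6).

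Of the PRC1 ligases, *Rnf2* had values of 272 and 275 CPM in control and 239.6 and 262 CPM in MERVL-KD 2-cell libraries, then 183 and 191 against 219 and 201 CPM in 4-cell libraries, and 184 and 176 against 234 and 211 CPM in 8-cell libraries. In these levels, scaled over the 12 libraries, MERVL-KD lay below the controls in 2-cell embryos and above them later. The stage fits gave log2 fold changes of -0.04, 0.17 and 0.31 (adjusted p = 0.82, 0.28 and 0.069), none of which passed. In 2-cell embryos the scaling over 12 libraries shifts MERVL-KD by -0.08 from the stage fit, which is more than the fitted difference. The interval of that fit ran from -0.20 to 0.12. The order of the 2-cell libraries thus depends on the scale, and no change of direction between stages is drawn from it. The difference at the 8-cell stage passed in DESeq2 (adjusted p = 0.049), with the replicate number as a block (0.043) and with library size alone as the scale (0.022), and the last of these also passed *Rnf2* in 2-cell embryos, where it gave 0.25 (adjusted p = 0.042), the opposite direction. *Ring1* stood at 5.84 and 6.39 CPM in control and at 4.23 and 4.38 CPM in MERVL-KD 4-cell libraries, a log2 fold change of -0.50 ± 0.27 (adjusted p = 0.28). At the 2-cell stage, where 4 libraries held between 10 and 23 counts of *Ring1*, its interval reached from -1.33 to 1.58, so that differences of 2-fold were not detectable at this depth.

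*Bmi1*, for a PCGF protein found in canonical PRC1, was higher in MERVL-KD embryos once the large fall after the 2-cell stage had taken place. In 2-cell embryos it stood at 2215 and 2276 CPM in control and at 2122 and 2115 CPM in MERVL-KD libraries, and the log2 fold change of the stage fit was 0.00 (95% interval from -0.13 to 0.13). Levels are scaled over 12 libraries and fold changes over the 4 of a stage, which sets them apart by -0.08 on the log2 scale at the 2-cell stage and by -0.01 at the others. In 4-cell embryos *Bmi1* stood at 341 and 342 CPM in control and at 508 and 542 CPM in MERVL-KD libraries. In 8-cell embryos the values were 269 and 299 CPM in control and 541 and 401 CPM in MERVL-KD libraries. Both MERVL-KD libraries lay above both controls at these stages, with log2 fold changes of 0.63 ± 0.09 (adjusted p = 8.0e-04) and 0.74 ± 0.13 (adjusted p = 0.013). With any 1 library left out these lay between 0.58 and 0.67 and between 0.50 and 0.94, and each still passed. The row of the copy, *Gm5946*, stood at 22.4 and 23.6 CPM in control and at 32.3 and 36.1 CPM in MERVL-KD 4-cell libraries, and at 13.7 and 17.0 against 33.6 and 25.3 CPM at the 8-cell stage.

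The MERVL-KD difference in *Bmi1* was larger by 0.70 ± 0.15 (adjusted p = 0.0095) at the 4-cell and by 0.81 ± 0.15 (adjusted p = 0.0033) at the 8-cell than at the 2-cell stage, beside 4.16% and 4.03% of all tested genes that passed these contrasts. Without MERVL-KD 4-cell replicate 2 the first was 0.54 (adjusted p = 0.0661). With library size alone as the scale neither passed, at 0.40 and 0.58 (adjusted p = 0.189 and 0.056). From the 2-cell to the 8-cell stage *Bmi1* fell by 2.17 ± 0.11 in MERVL-KD embryos (adjusted p = 3.6e-13), beside the 2.98 in control. The summed level of the 8 oocyte markers was 1222 to 1302 CPM in control and 797 to 895 CPM in MERVL-KD 2-cell libraries, 145 to 146 against 153 to 155 CPM at the 4-cell stage and 125 to 138 against 119 to 127 CPM at the 8-cell stage. The sum was thus slightly higher in MERVL-KD libraries at the 4-cell stage and overlapped the controls at the 8-cell stage. *Bmp15* gave most of the gap at the 2-cell stage, with means of 568 CPM in control and 307 CPM in MERVL-KD libraries. *Zp3* (22.8 and 27.8 CPM) and *Figla* (1.31 and 1.54 CPM) went the other way there. Of these markers 3 of 8 were lower in MERVL-KD 2-cell embryos, 0 of 8 passed at the 4-cell stage, where 6 had an unadjusted p under 0.05 and the median log2 fold change was 0.39, and 0 of 7 passed at the 8-cell stage, where 0 had an unadjusted p under 0.05. Markers of the morula and blastocyst moved as well. Of 6 such genes 2 were higher in MERVL-KD 4-cell embryos, *Krt8* at 24.6 and 28.1 CPM against 4.20 and 5.52 CPM and *Krt18* (1.41), and 1 was lower in 8-cell embryos, *Nanog* (-0.65), with median log2 fold changes of 0.96 and -0.25. The 6 summed to 45.9 to 55.8 CPM in control and 67.1 to 72.8 CPM in MERVL-KD 4-cell libraries, and to 66.7 to 71.7 against 49.8 to 54.1 CPM at the 8-cell stage. *Krt8* gave the largest part of the 4-cell rise. *Nanog*, the largest part of the control sum, had a lower mean there, with 33.5 and 44.1 CPM in control and 33.7 and 23.9 CPM in MERVL-KD libraries. It also gave most of the 8-cell fall, with means of 43.2 CPM in control and 27.4 CPM in MERVL-KD libraries. The part of either marker list in the *Bmi1* and *Pcgf1* differences was not tested.

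*Pcgf1*, of the variant complex that KDM2B brings to CpG islands, was lower in MERVL-KD embryos. It stood at 43.6 and 47.3 CPM in control and at 32.7 and 38.2 CPM in MERVL-KD 2-cell libraries, at 43.3 and 46.6 against 33.5 and 27.8 CPM in 4-cell libraries, and at 43.4 and 40.9 against 28.9 and 27.5 CPM in 8-cell libraries. All 6 MERVL-KD libraries lay below all 6 controls. The log2 fold changes were -0.27 ± 0.12 (adjusted p = 0.16), -0.55 ± 0.14 (adjusted p = 0.031) and -0.57 ± 0.13 (adjusted p = 0.028). The 4-cell call was lost without control replicate 1, control replicate 2 or MERVL-KD replicate 2 (-0.60, -0.50 and -0.42, adjusted p = 0.0506, 0.138 and 0.0842), and the 8-cell call without control replicate 1 or 2 (-0.52 and -0.61, adjusted p = 0.148 and 0.060). *Pcgf6*, of another variant complex, stood at 81.2 and 97.4 CPM in control and at 65.0 and 72.1 CPM in MERVL-KD 2-cell libraries, -0.30 ± 0.11 (adjusted p = 0.081), and its groups overlapped at both later stages.

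Averaged over the 3 stages in the fit of 12 libraries, *Bmi1* was higher in MERVL-KD embryos by 0.42 ± 0.06 (adjusted p = 4.3e-05), *Pcgf1* lower by a log2 fold change of -0.50 ± 0.08 (adjusted p = 1.1e-04) and *Ezh2* lower at -0.15 ± 0.05 (adjusted p = 0.049), so that 3 of 10 genes passed where 17% of all tested genes did. The *Bmi1* and *Pcgf1* calls were kept on leaving out any 1 library. That of *Ezh2* was lost on leaving out any 1 of the 12, with differences from -0.16 to -0.13. Of 9 other settings, the 2-fold minimum among them, 2 kept the *Ezh2* call. It was lost in 6, such as with counts halved and rounded up (adjusted p = 0.060), and the difference turned to 0.041 with library size alone.

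A ratio of genes within a library does not depend on how libraries are scaled. The log2 ratio of *Bmi1* to *Pcgf1* per length was 4.40 and 4.32 in control 2-cell libraries against 4.75 and 4.52 in those of MERVL-KD, 1.71 and 1.61 against 2.65 and 3.02 at the 4-cell stage, and 1.36 and 1.60 against 2.96 and 2.60 at the 8-cell stage. Every MERVL-KD library lay above both controls of its stage. This ratio sets a gene called higher against a gene called lower in the same libraries, so it is not separate support for those calls. The mean difference was 0.92 (exact permutation test within stages, two-sided, p = 0.0093, which is the smallest p the design allows, and 0.074 after Benjamini-Hochberg adjustment over 8 tests, n = 6 and 6). The ratio of *Pcgf6* to *Pcgf1* differed by 0.34 (exact permutation test, p = 0.093) and that of *Ring1* to *Rnf2* by -0.28 (exact permutation test, p = 0.27). Between the 2-cell and the 8-cell stage the ratio of *Bmi1* to *Pcgf1* differed by -2.37, that of *Ring1* to *Rnf2* by 4.22 and that of *Ezh1* to *Ezh2* by 0.13, each with p = 0.056 in an exact permutation test within conditions, the smallest p that 36 arrangements allow. The ratio of *Pcgf6* to *Pcgf1* differed by -0.09 between these stages (exact permutation test, p = 0.67).

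**Figure D3:**
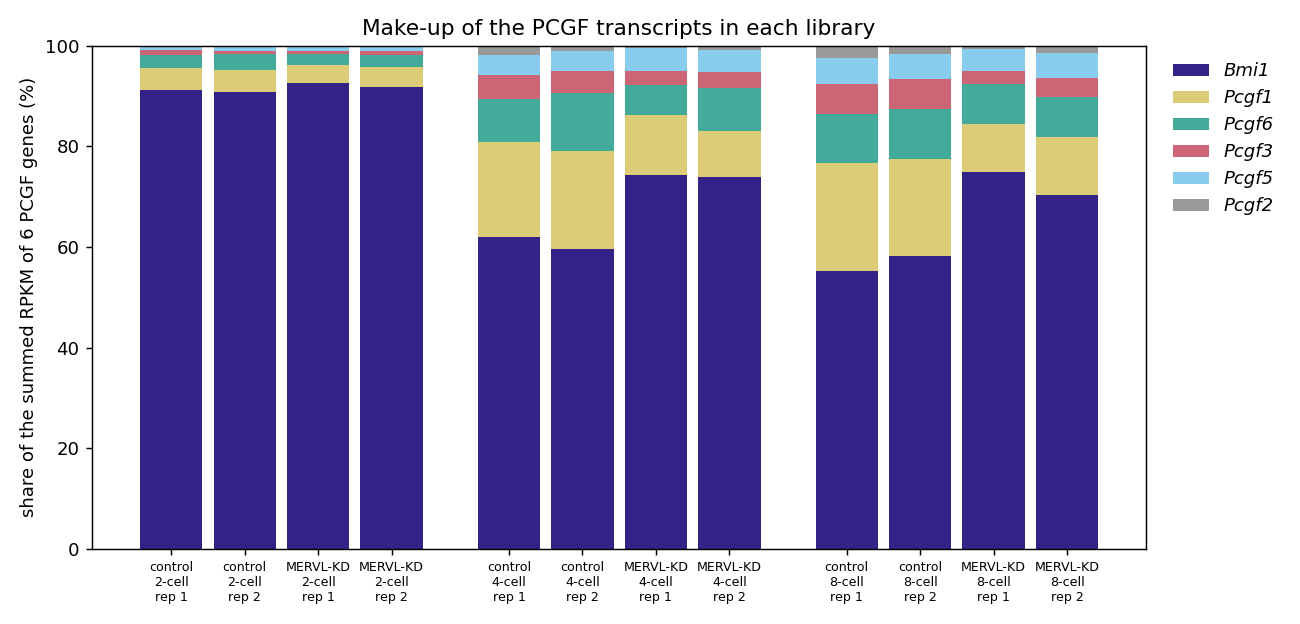
Share (%) of each of the 6 PCGF genes in their summed level per length (RPKM) in each of the 12 libraries, grouped by stage, with bars from 0 to 100. *Bmi1* took from 90.7% to 92.7% in 2-cell libraries of both groups, from 55.3% to 62.0% in later control libraries and from 70.3% to 74.9% in later MERVL-KD libraries.

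The PCGF transcripts were then set against their own sum, as the PCGF proteins share the same ligases. *Bmi1* made up 91.3% and 90.7% of the summed RPKM of *Pcgf1*, *Pcgf2*, *Pcgf3*, *Pcgf5*, *Pcgf6* and *Bmi1* in control and 92.7% and 91.8% in MERVL-KD 2-cell libraries. In 4-cell embryos its share in control libraries was 62.0% and 59.5%, and in MERVL-KD libraries it was 74.4% and 74.0%, and in 8-cell embryos 55.3% and 58.3% against 74.9% and 70.3%. The groups did not overlap at either later stage. *Pcgf1* held the next share, with 21.5% and 19.2% in control 8-cell libraries against 9.65% and 11.6% in those of MERVL-KD. The 5 genes other than *Bmi1* summed to between 52.6 and 58.4 RPKM in the 6 control libraries and to between 42.2 and 47.9 RPKM in the 6 MERVL-KD libraries, at each stage without overlap. *Pcgf1*, which is 1 of these 5, made up most of this difference at the later stages. Its means were 27.3 against 18.6 RPKM at the 4-cell stage, where the sums had means of 55.5 and 45.9 RPKM. At the 8-cell stage they were 25.6 against 17.1 RPKM, with sums of 54.3 and 44.1 RPKM. *Pcgf2*, whose protein can stand in for BMI1, took at most 2.45% in any library.

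The rest of the machinery was read from lists of 9 other PRC2 subunits, 25 other PRC1 subunits and 8 genes of H2A deubiquitination. In 2-cell embryos 5 of 9 PRC2 genes were lower and 1 was higher in MERVL-KD, with a median log2 fold change of -0.53 beside 0.01 over all tested, of which 14.1% passed. The part in this of the 2-cell and oocyte markers, whose sums were also lower in these libraries, was not tested. In 4-cell embryos 1 of the 9 was higher and 1 lower (10.8% of all tested passed), *Epop* at 1.39 and *Lcor* at -1.40, with a median of 0.00. In 8-cell embryos 0 of 8 were higher and 2 lower (5.06% passed), *Lcor* at -0.69 and *Rbbp4* at -0.34, with a median of -0.19. At the 2-cell stage both histone-binding partners were lower, *Rbbp4* (96.7 and 106 CPM in control, 51.3 and 66.6 CPM in MERVL-KD, log2 fold change -0.70) and *Rbbp7* (217 and 228 against 135 and 142 CPM, -0.60). Cofactors of the PRC2.1 form split, with *Mtf2* at -0.53 and *Lcor* at -0.73, but *Epop* at 0.97 from 2.93 and 3.91 to 7.36 and 5.26 CPM. Counts were per gene, so transcript forms of *Lcor* were not told apart, and its values cannot be assigned to the PRC2 cofactor alone. *Ezhip*, an inhibitor of EZH2 that is made in germ cells, was lower at -0.94 ± 0.08 (adjusted p = 1.2e-06), from 1085 and 1239 CPM in control to 547 and 596 CPM. The row of *Ezhip* carries its older name AU022751 in the tables.

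*Lcor* and *Kdm2b* were lower in MERVL-KD embryos at every stage. *Lcor* stood at 339 and 359 CPM in control and at 139.6 and 124 CPM in MERVL-KD 4-cell libraries, and its log2 fold changes were -0.73, -1.40 and -0.69 from the 2-cell to the 8-cell stage (adjusted p = 3.0e-05, 5.5e-06 and 0.0012). *Kdm2b*, which recruits the PCGF1 complex, stood at 240.5 and 231 CPM in control and at 173 and 174 CPM in MERVL-KD 8-cell libraries, and its log2 fold changes were -0.44, -0.50 and -0.43 (adjusted p = 0.0062, 0.0066 and 0.013). *Bcorl1* of the same complex was lower at the 2-cell and 8-cell stages (-1.62 and -0.62), and its paralog *Bcor* was higher in 2-cell embryos, at 115 and 119 CPM against 47.9 and 64.8 CPM in control (1.14 ± 0.12, adjusted p = 1.3e-05). The chromobox gene *Cbx2* was higher in 2-cell embryos as well (0.29).

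**Figure D4:**
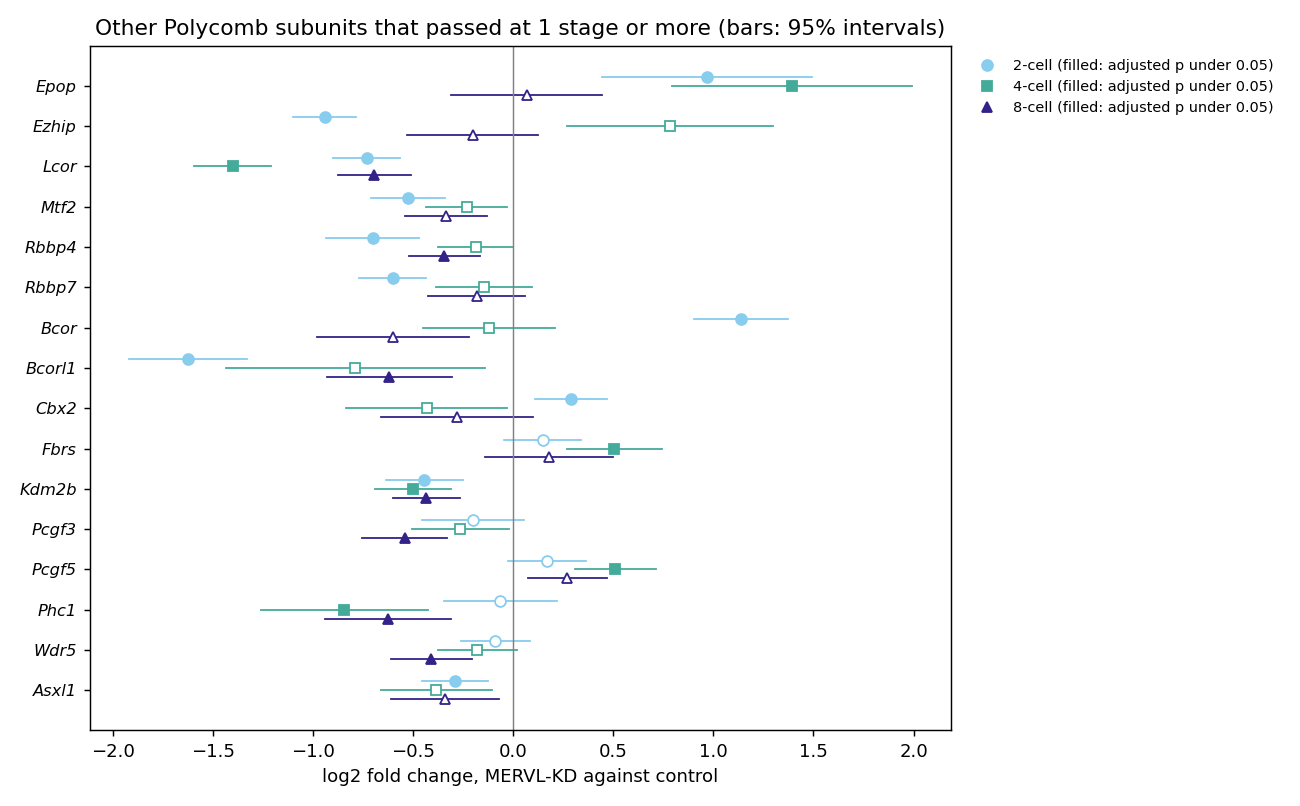
Log2 fold change between MERVL-KD and control embryos of the 16 other Polycomb genes that passed at 1 stage or more (6 of PRC2, 9 of PRC1 and *Asxl1* of H2A deubiquitination), with 95% intervals, circles for 2-cell, squares for 4-cell and triangles for 8-cell embryos, filled where the adjusted p was under 0.05. *Lcor* and *Kdm2b* were below 0 and filled at every stage, and *Bcor* was above 0 and filled at the 2-cell stage alone.

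Over the 25 other PRC1 subunits 2 passed higher and 2 lower in 2-cell embryos, 2 each way in 4-cell embryos, and 0 against 5 in 8-cell embryos, with median log2 fold changes of -0.01, -0.03 and -0.01. Over all tested genes 14.1%, 10.8% and 5.06% passed at these stages, and the 4 of 25 in 2-cell embryos are near that share. *Pcgf5* (0.51) and *Fbrs* (0.51), which belong to the same variant complex, were the genes that were higher in 4-cell embryos, and *Phc1*, a canonical subunit, was lower at the 4-cell and 8-cell stages (-0.84 and -0.63). *Pcgf3*, the paralog of *Pcgf5*, was lower in 8-cell embryos at 47.5 and 49.7 CPM against 69.3 and 73.0 CPM (-0.54), together with *Wdr5* (-0.41). Of the 8 deubiquitination genes 1 was lower in 2-cell embryos, *Asxl1* at 155 and 155 CPM against 201 and 199.5 CPM (-0.29, adjusted p = 0.032), and 0 passed at the later stages in edgeR, where 2 and 1 had an unadjusted p under 0.05. The MERVL-KD difference itself changed between the 2-cell and 8-cell stages for *Bcor* (-1.66, adjusted p = 0.025).

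In control embryos most genes of these lists changed from the 2-cell to the 8-cell stage. All 9 other PRC2 genes passed, 5 of them higher and 4 lower, and of the other PRC1 genes 8 were higher and 13 lower, where 58% of all tested genes passed. *Ezhip* went from 1085 and 1239 CPM to 18.3 and 17.6 CPM (-6.01 ± 0.28, adjusted p = 2.1e-08) and *Phf1* from 394 and 405 to 11.2 and 11.2 CPM (-5.15). The PRC2.2 cofactor *Aebp2*, the partner of JARID2, rose from 128 and 122 to 424 and 408 CPM (1.74 ± 0.10, adjusted p = 3.3e-12). Among canonical PRC1 subunits *Phc2*, *Scml2*, *Cbx2* and *Scmh1* fell by between 2.56 and 4.04, while *Cbx6* (2.67) rose from 0.510 and 0.770 CPM to 3.63 and 4.59 CPM. *Pcgf2*, named after its values were seen, rose from 0.637 and 1.35 to 10.6 and 7.53 CPM (3.17).

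Genes known as Polycomb targets were counted beside the complexes. Of 39 *Hox* genes 17, 11 and 13 were testable at the 3 stages, and between 3 and 5 reached 1 CPM in any group. *Hoxa7* was the highest at 26.7 CPM in control and 27.4 CPM in MERVL-KD 2-cell embryos (means of 2 libraries). Of these genes 1 passed between MERVL-KD and control, *Hoxa13* in 4-cell embryos with 0.113 and 0.486 CPM in control and 2.00 and 1.26 CPM in MERVL-KD libraries (adjusted p = 0.049), while 0 passed at the 2-cell and 8-cell stages, where 1 and 2 had an unadjusted p under 0.05. The shares of all tested genes that passed were 14.1%, 10.8% and 5.06%. Of 5 genes whose imprint rests on maternal H3K27 methylation 4 rose in control embryos from the 2-cell to the 8-cell stage, *Gab1*, *Sfmbt2*, *Slc38a4* and *Smoc1*, with log2 fold changes from 1.37 to 3.07, in a contrast that 58% of all tested genes passed. *Gab1* was lower in MERVL-KD embryos at the 2-cell stage (8.69 and 9.72 CPM against 14.9 and 19.3 CPM, -0.81) and at the 4-cell stage (-0.59). *Jade1* was lower in 2-cell (-0.69) and higher in 4-cell MERVL-KD embryos (0.45), and 0 of the 5 passed at the 8-cell stage, where 1 had an unadjusted p under 0.05. Alleles were not resolved in the counts.

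Finally the time courses of the 10 genes were compared with those of all 9655 genes of at least 5 CPM, as the root mean square difference of log2 CPM over the 12 libraries after each gene was centred on its own mean. *Bmi1* was nearest to *Abhd12* (0.09), with 61 genes within 0.25, and among the 10 to *Suz12* (0.83). *Ring1* was nearest to *Lsm4* (0.17, with 59 genes within 0.25) and *Suz12* to *Trim37* (0.08, with 598). *Ezh1*, *Ezh2*, *Eed*, *Rnf2*, *Pcgf1* and *Pcgf6* were nearest to *Utp15*, *Dpy30*, *Copz1*, *Yes1*, *Mdc1* and *Oard1*, each within 0.13. For *Jarid2* no gene came within 0.25, and its nearest was *Mbnl3* at 0.35. This measure takes in the spread between replicates, which was wide for *Jarid2* (264 and 508 CPM in control 4-cell libraries), so it does not show a time course of its own.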

How the data were processed

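RNA was sequenced from 12 libraries, each of 30 pooled embryos. The authors aligned reads to GRCm38/mm10 with STAR 2.5.3a, keeping unique alignments, and counted them with featureCounts over GENCODE vM25 genes and RepeatMasker families, and the deposited values are raw counts. Whether pairs were counted once and which strand setting was used is not given in the sources used here. Unique alignment removes reads that fit a gene and its copy equally well.

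Counts of 56326 features (55291 genes and 1035 repeat families) were tested with edgeR 4.0.16 (filterByExpr, TMM, robust quasi-likelihood, R 4.3.3), by stage with 2 against 2 libraries for MERVL-KD against control, and in a fit of 12 libraries for other contrasts, with Benjamini-Hochberg adjustment over all features tested. Levels are CPM on TMM-scaled totals, and RPKM divides them by the deposited exon length. The 12 totals, from 28167085 to 41482526 counts, limit the precision. Intervals of 95% take the standard error as normal, which makes them narrower than the tests imply with so few libraries. Ratios were compared by exact permutation tests, two-sided. The edgeR fit was tested on simulated counts with known folds. The permutation test and the search for ASO sites were each checked on a short input with a known answer. Alternatives were DESeq2 1.42.0, other scalings, filters and fits, the replicate number as a block, and each library left out in turn.

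The 10 members and the gene lists were chosen with earlier results of these data known. Named besides the members were the genes of each list that passed, at most 8 a list by smallest p, and the gene nearest to each member. Copies of at least 300 bases at 90% identity were sought with BLAST 2.17.0. Promoter windows came from RefSeq. A gene of the list of other PRC1 subunits is not reported here.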

Additional observations from a re-analysis of the deposited data

Results flagged for a closer look

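For 2 of the 10 genes the difference between MERVL-KD and control embryos itself changed with stage, by a contrast of the stage differences in 1 edgeR fit of 12 libraries. For *Bmi1* the log2 difference at the 4-cell stage exceeded that at the 2-cell stage by 0.70 (adjusted p = 0.0095), and the difference at the 8-cell stage exceeded it by 0.81 (adjusted p = 0.0033). Neither passed with library size alone as the scale (adjusted p = 0.189 and 0.056), and the first was lost without MERVL-KD 4-cell replicate 2. For *Jarid2* the difference at the 4-cell stage minus that at the 2-cell stage was -2.03 (adjusted p = 0.040), a call lost on leaving out any 1 of 10 of the 12 libraries and with the replicate number as a block (adjusted p = 0.062).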

How the results depend on the processing

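Each count here is the number of the 10 genes that passed. For MERVL-KD against control at the 2-cell stage it was 1, and 4 with library size alone, 2 with at least 1 count in some library and 2 in a joint fit of the 12 libraries (2 to 2 with a library left out). At the 4-cell stage it was 2, and 0 at a minimum of 2-fold and 1 with library size alone (1 to 3). At the 8-cell stage it was 2, and 0 at 2-fold, 4 with DESeq2, 4 with at least 1 count in some library and 4 with the replicate block, each of which added *Jarid2* and *Rnf2* (1 to 4). In control embryos it was 7 for the 4-cell against the 2-cell stage (3 at 2-fold, 6 to 7), 1 for the 8-cell against the 4-cell stage (0 at 2-fold, 2 with library size alone, 2 with at least 10 counts in every library, 0 to 2) and 7 for the 8-cell against the 2-cell stage (3 at 2-fold, 4 to 7). In MERVL-KD embryos it was 1 for the 8-cell against the 4-cell stage (0 at 2-fold, 2 with DESeq2, 0 with library size alone, 0 with at least 1 count in some library, 0 to 1) and 4 for the 8-cell against the 2-cell stage (2 at 2-fold, 7 with library size alone). For the mean of 3 stages it was 3 (0 at 2-fold, 5 with DESeq2). For the change of the difference from the 2-cell to the 4-cell stage it was 2 (1 at 2-fold, 1 with library size alone, 1 with the replicate block, which lost *Jarid2*, 0 to 2), and to the 8-cell stage 1 (0 at 2-fold, 3 with DESeq2, 2 with at least 10 counts in every library, 2 with a non-robust fit, 1 to 2). The causes were not tested.

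The mean difference of *Ezh2* turned to 0.041 with library size alone. The ratio of *Ezh1* to *Ezh2* between MERVL-KD and control ran from -0.026 to 0.027 with a library left out, that of *Pcgf6* to *Pcgf1* from 0.19 to 0.48, and that of *Ring1* to *Rnf2* from -0.51 to -0.052. Library size alone also ended the *Pcgf1* calls at the 4-cell and 8-cell stages (adjusted p = 0.0794 and 0.089) and both *Bmi1* stage contrasts (0.40 and 0.58, adjusted p = 0.189 and 0.056), and it put the median log2 fold change of all tested genes at 0.30 for 2-cell, 0.089 for 4-cell and 0.13 for 8-cell embryos. With it 5019 genes passed in 2-cell embryos rather than 2904, 86.3% of them higher rather than 47.6%, and the share higher was 57.2% rather than 45.7% in 4-cell and 60.9% rather than 29.6% in 8-cell embryos. A joint fit of the 12 libraries left 34.4% higher in 2-cell embryos. Requiring only 1 count in some library, 1609 rather than 932 genes passed in 8-cell embryos, 43.2% of them higher. Same-numbered libraries did not deviate together (r = -0.013, -0.00074 and 0.0074 over 24850 genes and repeat families). Features of low count, where counting noise is large, are included, so this cannot settle whether the numbers pair the libraries. The replicate block passed 1339 genes at the 8-cell stage. The *Bmi1* and *Jarid2* calls against control within stages held under each alternative except the 2-fold minimum, which ended those of *Bmi1*. With 2 libraries a group, differences under 2-fold were often not detectable.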
